A study of Homo sapiens with 32 samples.

Results

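GLIS3 and INS-IGF2, grouped as beta-cell markers, were followed here during the differentiation of human embryonic stem cells. All of their regions listed as peaks in the deposited table of read counts were taken. These were 3 peaks of GLIS3 (ENSG00000107249) and 4 peaks of INS-IGF2 (ENSG00000129965), or 7 of 26104 peaks and 2 of 7978 genes. The rule used the gene names and no measured value, though it was set with earlier results of these data known. H1 and MEL1, 2 established lines of human embryonic stem cells, were sampled undifferentiated (S0), as posterior foregut (S3), as pancreatic progenitors (S4) and as immature β-like cells (S6). Every line and stage has 2 replicates. Each RNA preparation gave an input library and a library of fragments bound by an m6A antibody (IP), for 32 libraries in all. A listed peak need not be enriched in IP over input. Of the 7 peaks, GLIS3 peak 3977 alone was called enriched over both lines, at S3, S4 and S6, as given below. The 4 INS-IGF2 peaks held fewer IP than input reads, relative to library size, at those stages. The labels name no altered gene, drug or sort for these libraries, and the groups differ by stage and line. They number each replicate as a clone of its stage. Where a mean is fitted for each line and stage, p-values measure the spread between these preparations. In the fits over both lines with cell line as a covariate, the spread also takes in differences between the lines in their course over the stages. In such bulk RNA, more cells that express a gene and more of its RNA per cell cannot be told apart.

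GLIS3 is a Krüppel-like zinc finger transcription factor that binds G-rich DNA elements, among them one in the insulin promoter, and its loss causes neonatal diabetes. INS-IGF2 is a readthrough gene that starts at the insulin gene INS and continues into IGF2, which encodes the fetal growth factor IGF-II. Its annotated span therefore covers that of both genes. m6A is a methyl mark on adenosine in mRNA, set by the METTL3 and METTL14 complex, and in m6A-seq a methylated stretch is overrepresented among the antibody-bound fragments.

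In the RefSeq annotation (GRCh38.p14), INS-IGF2 lies on chr11:2129117-2161209, INS on chr11:2159779-2161209 and IGF2 on chr11:2129117-2149566, all on the minus strand, and GLIS3 lies on chr9:3824127-4490465, also on the minus strand. The promoter windows of INS and INS-IGF2 in the RefSeq table are identical, which is why that sequence is shown. The 250 bases before the start of INS-IGF2 and of 1 of the 2 GLIS3 starts in that table follow, 5′ to 3′ on the minus strand, with capitals for matches on either strand to any of 4 motifs. These are the TATA box, searched as TATAAA. The core of the A boxes, which PDX1 is known to bind, was searched as TAATG. The E box was searched as CANNTG, and a guanine run like that of GLIS elements as TGGGGGG.
INS-IGF2 and INS, chr11:2161210-2161459: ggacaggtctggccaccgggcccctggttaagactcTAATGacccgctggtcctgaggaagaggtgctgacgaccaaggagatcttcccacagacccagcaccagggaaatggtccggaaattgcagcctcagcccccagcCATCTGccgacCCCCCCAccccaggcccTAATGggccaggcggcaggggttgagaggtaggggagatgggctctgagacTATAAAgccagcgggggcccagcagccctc
GLIS3, chr9:4298497-4298746: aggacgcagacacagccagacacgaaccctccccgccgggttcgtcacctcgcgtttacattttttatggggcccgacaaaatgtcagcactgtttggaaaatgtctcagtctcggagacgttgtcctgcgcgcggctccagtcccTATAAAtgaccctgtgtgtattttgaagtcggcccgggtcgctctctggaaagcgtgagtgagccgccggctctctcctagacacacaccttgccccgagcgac

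The INS-IGF2 window held all 4 motifs without overlap. TATAAA began 30 bases before the start (position -30), the A box cores at -214 and -81, the E box at -109 and the G run, on the opposite strand, at -98. Of the 4 motifs, the GLIS3 window held 1, a TATAAA at -104, and the window of the other GLIS3 start (chr9:4152184-4152433) held a TAATG at -228. Among all 35116 promoter windows of the same length, 10.7% held TATAAA, 21.1% TAATG, 61.8% CANNTG and 7.12% TGGGGGG. These are matches of letters and no binding was measured here.

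Input depth ran from 2652830 to 6879256 reads in peaks and IP depth from 2378881 to 15674899, and the lowest IP depths were those of MEL1 S4 (2483580 and 2378881). The mitochondrial share of IP reads was 0.0465% and 0.0510% in H1 S4 and 0.388% to 2.25% in the other 14 IP libraries. Of 8 fixed markers of undifferentiated cells 6 had peaks, and their summed input level, in TMM-normalized counts scaled to library size (CPM), went from 3510 to 5393 CPM at S0 to 527 to 960 at S6. Of 11 beta-cell markers 3 had peaks, so the label of S6 could be checked on few genes. PDX1, a transcription factor of pancreas and beta cells, had 0.206 to 0.682 CPM at S0, 25.5 to 36.5 at S3 and 16.8 to 21.5 at S4, and at S6 57.7 and 67.2 in MEL1 but 2.21 and 3.02 in H1, below every library of S3 and S4. By PDX1 the H1 libraries of S6 go against the label. The potassium channel subunit KCNJ11 was low at every stage, with 0.871 to 2.66 CPM at S0, 0.226 to 1.65 at S3, 0.369 to 1.23 at S4, and at S6 0.882 and 3.02 in H1 and 0 and 0.747 in MEL1. The 4 of 5 duct markers with peaks summed to 337 to 741 CPM at S0 and 1278 to 9078 at S6, and the 5 of 7 liver-type markers to 4.13 to 25.4 at S0, 493 to 33447 at S3, 174 to 66461 at S4 and 109 to 3214 at S6. The 2 of 6 mesenchyme markers with peaks summed to 112 to 153 at S0, 91.4 to 102 at S3, 59.0 to 760 at S4 and 201 to 213 at S6, and the 2 of 8 markers of other islet cells (alpha, delta, PP and epsilon) to 22.3 to 86.6, 13.2 to 61.6, 23.999 to 98.7 and 77.4 to 104 at the same stages. These sums over lists carry a prior count of 1 per gene, unlike the levels of single genes. No acinar or enterochromaffin-like marker of the 5 listed for each had a peak. The part of these cell types in the changes below was not tested.

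GLIS3 had 0 input reads in all 4 S0 libraries and was detected in all 12 libraries of the later stages. At S3 it had 3 and 15 reads in H1 and 12 and 31 in MEL1, which is 0.591, 3.09, 3.00 and 6.99 CPM. At S4 the levels were 3.46 and 9.46 in H1 and 12.2 and 14.4 in MEL1, and at S6 they were 9.59 and 12.6 in H1 and 15.7 and 16.9 in MEL1. The stages above S0 overlapped between S3 and S4 and between S4 and S6, whereas every S6 library lay above every S3 library. With 3 reads per library as the limit that a count of 0 allows (0.669 CPM on average), the mean of 3.42 ± 2.65 (SD, n = 4) at S3 was at least 5.11-fold higher than at S0, the mean of 9.87 ± 4.73 at S4 at least 14.8-fold and the mean of 13.7 ± 3.30 at S6 at least 20.5-fold. The S3 limit fell to 3.33-fold without MEL1 S3 replicate 2, and H1 S3 replicate 1 alone, with 3 reads, did not exceed the limit of a count of 0. These limits cover counting error only, and reads without molecular identifiers are not independent molecules.

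The threshold for a call, by edgeR's quasi-likelihood test, was a change of at least 2-fold with an adjusted p (Benjamini-Hochberg, over all genes or peaks) under 0.1. Both GLIS3 and INS-IGF2 were called higher at S3, S4 and S6 against S0, where 15%, 18% and 17.5% of all 7973 tested genes were. GLIS3 rose from S3 to S6 by 2.11 ± 0.48 on the log2 scale (SE, adjusted p = 0.00963), where 9.33% of genes were called higher. Its values from S3 to S4 (1.58 ± 0.48, adjusted p = 0.141) and from S4 to S6 (0.53 ± 0.45, adjusted p = 0.557) did not pass, against 1.49% and 2.85% of genes called higher. For S3 to S4 the call turned on the test, since DESeq2 gave 1.59 with an adjusted p of 0.0292.

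Within the lines, GLIS3 was called from S3 to S4 in H1 (1.86 ± 0.63, adjusted p = 0.0710, 4.3% of genes called higher) and not in MEL1 (1.40 ± 0.57, adjusted p = 0.107, 7.8%) in the fit of both lines, whereas a fit of the MEL1 libraries alone called it (1.40, adjusted p = 0.0845). The difference between the lines in that change was -0.47 ± 0.84 (adjusted p = 0.812). From S3 to S6 it was called in both, by 2.58 ± 0.62 in H1 (adjusted p = 0.00419, 9.32% of genes called higher) and 1.69 ± 0.57 in MEL1 (adjusted p = 0.0273, 13.4%). The GLIS3 level itself was higher in MEL1 than in H1 at S3 by 1.45 ± 0.66 (adjusted p = 0.0820, 29.8% of genes called in either direction). At S4 (0.99 ± 0.55, adjusted p = 0.147) and at S6 (0.56 ± 0.53, adjusted p = 0.445) the line difference did not pass the test. No test of the lines against S0 was read for GLIS3, because both lines had 0 reads there.

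**Figure D1:**
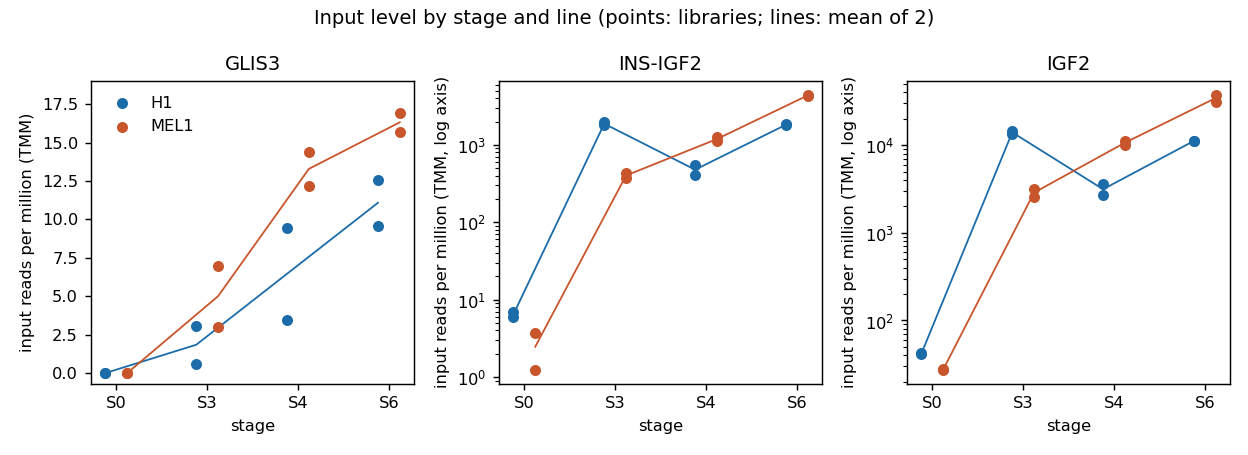
Input level (CPM, TMM) of GLIS3 (linear axis), INS-IGF2 and IGF2 (log axes) at each stage, with 1 point per library, H1 in blue, MEL1 in orange and lines through the means of 2 libraries. GLIS3 climbed from 0 in both lines to between 9.59 and 16.9 at S6, while INS-IGF2 and IGF2 dipped at S4 in H1 and rose at S4 in MEL1.

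INS-IGF2 was low in undifferentiated cells and abundant from S3 on. At S0 it had 29 and 26 input reads in H1 and 6 and 17 in MEL1, or 7.01, 5.91, 1.23 and 3.70 CPM. At S3 it reached 1962 and 1786 CPM in H1 and 368 and 435 in MEL1. At S4 it stood at 549 and 405 in H1 and 1128 and 1248 in MEL1, and at S6 at 1786 and 1850 in H1 and 4270 and 4429 in MEL1. The lines did not overlap at any stage, and their order turned between S3 and S4.

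The change from S0 to S3 was 7.98 ± 0.79 on the log2 scale (SE, adjusted p = 1.86e-06), and that from S0 to S6 was 9.47 ± 0.84 (adjusted p = 5.61e-07). From S3 to S4, INS-IGF2 fell by 1.97 ± 0.17 in H1 (adjusted p = 1.98e-07, 1.88% of genes called lower) and rose by 1.56 ± 0.17 in MEL1 (adjusted p = 9.80e-07, 7.8% called higher). The difference between the lines in this change was 3.54 ± 0.24 (adjusted p = 1.88e-09), where 9.65% of genes were called in either direction. The pooled value of -0.40 ± 0.62 (adjusted p = 0.851) averaged these opposite courses.

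From S4 to S6 both lines moved alike in direction and size. INS-IGF2 rose by 1.93 ± 0.17 in H1 (adjusted p = 7.18e-08, 4.64% of genes called higher) and by 1.87 ± 0.17 in MEL1 (adjusted p = 4.94e-08, 8.99%), and the line difference was -0.06 ± 0.23 (adjusted p = 0.904). The call of the pooled rise of 1.89 ± 0.58 (adjusted p = 0.0702) was lost when any replicate number of either line was left out (values of 1.86 to 1.94). Here and in the fits below, leaving out a replicate removed its libraries at every stage of that line, not a single library. The call was also lost with replicate number as a block (1.90, adjusted p = 0.114) and without cell line in the fit (1.89, adjusted p = 0.152). Against S3, the S6 level was 3.44 ± 0.18 higher in MEL1 (adjusted p = 5.59e-12), and -0.04 ± 0.16 in H1 (adjusted p = 0.884), a line difference of 3.48 ± 0.24 (adjusted p = 1.35e-09, 18.9% of genes called). Against S0, the line difference was 2.71 ± 0.42 at S4 (adjusted p = 3.47e-05, 36% of genes called) and 2.65 ± 0.42 at S6 (adjusted p = 7.58e-05, 25.1%). The level in MEL1 minus that in H1 was -1.39 ± 0.39 for undifferentiated cells, -2.22 ± 0.17 at S3, 1.32 ± 0.17 at S4 and 1.26 ± 0.17 for S6 cells, each called, where 15.3%, 29.8%, 34% and 22.4% of genes were.

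IGF2, whose exons INS-IGF2 shares, moved in the same direction as INS-IGF2 within each line from S3 to S4 in the input. It fell by 2.16 ± 0.17 from S3 to S4 in H1 and rose by 1.89 ± 0.16 in MEL1, and its S6 level against S0 was 9.29 ± 0.86. Its line difference from S0 to S3 was called (-1.68 ± 0.25, adjusted p = 2.90e-05) where that of INS-IGF2 was not (-0.83 ± 0.45, adjusted p = 0.160), and its pooled value from S4 to S6 (1.73 ± 0.61, adjusted p = 0.115) did not pass. The differences between the 2 genes were not tested. The INS-IGF2 count equalled 11.1% to 16.8% of the IGF2 count in 15 of the 16 input libraries and 4.41% in MEL1 S0 replicate 1, which had 6 INS-IGF2 reads.

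The last INS-IGF2 peak, at position 927 of the gene as listed, had nearly the counts of IGF2 peak 4380. Over the 12 input libraries with at least 100 reads in both, the ratio of their counts lay between 1.02 and 1.07, and over 6 IP libraries between 0.887 and 0.994. In IP libraries with fewer reads the counts were less alike, and in MEL1 S3 replicate 1 they were 5 and 27. The same peak had identical counts to peak 4352 of ENSG00000284779, a gene without a symbol in the table used, in 30 of 32 libraries, with a difference of at most 2 reads in the others. Reads there were thus counted for more than 1 gene, and the peak cannot tell INS-IGF2 from IGF2. Peaks 127, 277 and 727 had no peak of nearly equal counts, since the nearest differed by 46.1%, 32.1% and 31.5% of their reads. Sharing with part of a larger peak would not be found in this way and was not tested. The counts of peak 277 were 0.392 to 0.483 of those of IGF2 peak 3480 over 12 input libraries. Over 12 IP libraries they were 0.653 to 0.882. Whether the reads of peaks 127, 277 and 727 come from INS, IGF2 or the readthrough RNA cannot be told apart with these counts. INS itself is not analysed here. INS-IGF2 was abundant already at S3 in both lines, and its level did not set S6 apart from S3 in H1, whereas it did in MEL1. The H1 libraries of S6 go against their label by PDX1. These values therefore cannot decide whether INS-IGF2 marks beta cells.

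**Figure D2:**
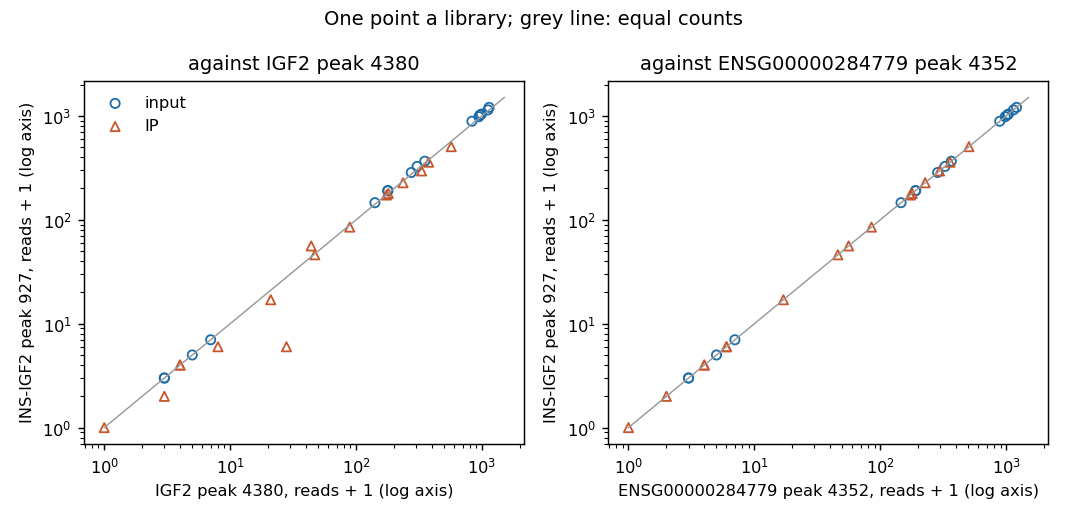
Reads of INS-IGF2 peak 927 against IGF2 peak 4380 (left) and against peak 4352 of ENSG00000284779 (right), each plus 1 on log axes, with 1 point per library (circles input, triangles IP) and a grey line at equal counts. Input points lie on or close to the line in both panels, and the counts on the right are identical in 30 of 32 libraries.

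All 7 peaks were called higher in the input at S6 against S0, where 16.8% of the 26104 peaks were. Of the 3 GLIS3 peaks, 7427 alone was called from S3 to S4 (2.26 ± 0.44, adjusted p = 0.0299) and from S3 to S6 (2.89 ± 0.44, adjusted p = 0.000653), against 0.785% and 6.42% of peaks called higher. It had 2 and 3 input reads in H1 S3, 6 and 12 in MEL1 S3, 27 and 27 in H1 S6 and 28 and 35 in MEL1 S6, so that the 2 stages did not overlap. The call from S3 to S4 was lost when any replicate was left out (2.17 to 2.41) and without cell line in the fit (adjusted p = 0.482). Peak 3877 never exceeded 10 input reads, with values of -0.22 ± 0.73 from S3 to S4 and 0.98 ± 0.68 from S3 to S6.

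GLIS3 peak 3977 had 23 and 20 input reads in H1 S6 but 6 and 4 in MEL1 S6, and 42 of its input reads came from a single library, H1 S4 replicate 2. Its input value from S3 to S6 was 1.33 ± 0.86 (adjusted p = 0.401) over both lines. With H1 alone it was 3.06 (adjusted p = 0.0207) and with MEL1 alone -0.03.

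From S4 to S6, INS-IGF2 peaks 277 (1.78 ± 0.55), 727 (2.20 ± 0.52) and 927 (1.90 ± 0.53) were called higher in the input (adjusted p = 0.0963, 0.0270 and 0.0619), where 1.85% of peaks were. Peak 127 had 1.75 ± 0.59 (adjusted p = 0.131) and was called with DESeq2 (1.74, adjusted p = 0.0781), H1 alone (1.77) and MEL1 alone (1.69). From S3 to S6, peak 727 alone of the 4 was called (1.71 ± 0.54, adjusted p = 0.0533). This pooled value stood between 0.51 in H1 alone, under 2-fold, and 3.28 in MEL1 alone, and the call was lost without MEL1 replicate 1 (1.16) or MEL1 replicate 2 (1.26) and without cell line in the fit (adjusted p = 0.125). The S4 to S6 calls of 277, 727 and 927 were lost without cell line in the fit (adjusted p = 0.230, 0.120 and 0.173), and those of 277 and 927 with the replicate block (0.141 and 0.101). Those of 277 and 927 were also lost without any of the replicates, and that of 727 without H1 replicate 1 (2.18) or MEL1 replicate 2 (2.27). Peak 277 held most of the INS-IGF2 input reads at every later stage, with a median share of 61.0% at S3, 65.0% at S4 and 59.2% at S6, and peak 727 held 23.2%, 20.8% and 26.9%.

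The share of the gene's input reads in each peak was tested between stages, and by edgeR's test of peak shares none of the 4 INS-IGF2 peaks was called in any of the 6 comparisons and none of the 3 GLIS3 peaks in the 3 among S3, S4 and S6. At S0 GLIS3 had no input reads, so its shares there are undefined and the comparisons against S0 are not read. The background was 0% of 23766 peaks from S3 to S4, 0.00421% from S4 to S6, 0.0379% from S3 to S6, and 0.101%, 0.332% and 0.278% at S3, S4 and S6 against S0. The smallest unadjusted p, and the 1 under 0.05, was 0.0374 for GLIS3 peak 3877 from S3 to S4 (-1.84).

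In the IP libraries a single GLIS3 peak carried most of the reads. Peak 3977 had 92 and 105 IP reads in H1 S3 and 215 and 207 in MEL1 S3, 124 and 174 in H1 S4 and 79 and 18 in MEL1 S4, and 706 and 920 in H1 S6 and 614 and 410 in MEL1 S6. At S0 it had 4 and 4 in H1 and none in MEL1. Its median share of the GLIS3 IP reads was 81.4% at S3, 73.8% at S4 and 81.5% at S6, while its median share of the input reads was 25.0%, 24.6% and 24.7%. Single input libraries varied widely, from 0% to 48.4% at S3, 12.8% to 60.9% at S4 and 9.52% to 42.6% at S6. The IP shares ran from 79.6% to 85.3%, 48.6% to 85.9% and 64.9% to 85.9%.

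Peak 3977 was enriched in IP over input at S3 by 3.07 ± 0.78 on the log2 scale (SE, adjusted p = 0.00161), at S4 by 1.90 ± 0.73 (adjusted p = 0.0331) and at S6 by 3.87 ± 0.77 (adjusted p = 0.000128). Of all 26104 peaks, 30.3%, 20.8% and 28.4% were called enriched at these stages. All 12 preparations had a value above 0, from 0.87 in H1 S4 replicate 2 to 5.59 in H1 S3 replicate 1, whose input held 0 reads of this peak. The S4 call was lost without MEL1 replicate 1 (1.68, adjusted p = 0.107) and without MEL1 S4 (1.53, adjusted p = 0.201).

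The other GLIS3 peaks were not enriched beyond the spread between libraries. Peak 3877 had 0.35 ± 0.89, 0.73 ± 0.94 and 0.56 ± 0.86 at S3, S4 and S6, with adjusted p of 0.750, 0.540 and 0.592. Peak 7427 had -0.23 ± 0.71, -0.97 ± 0.68 and 0.31 ± 0.65, with adjusted p of 0.792, 0.244 and 0.696. It held 34.8% to 79.5% of the GLIS3 input reads at S4 and 47.4% to 83.3% at S6, with lower shares in H1 than in MEL1. For both peaks the sign of some of these values turned with the processing, and peak 7427 at S4 was called depleted with DESeq2 (-1.13, adjusted p = 0.0684) and with MEL1 alone (-2.36, adjusted p = 0.0434). Peaks 3877 and 3977 are 100 bases apart as listed, but no exon or sequence was assigned to them, because the direction in which positions run on minus-strand genes is not given in the sources used here.

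**Figure D3:**
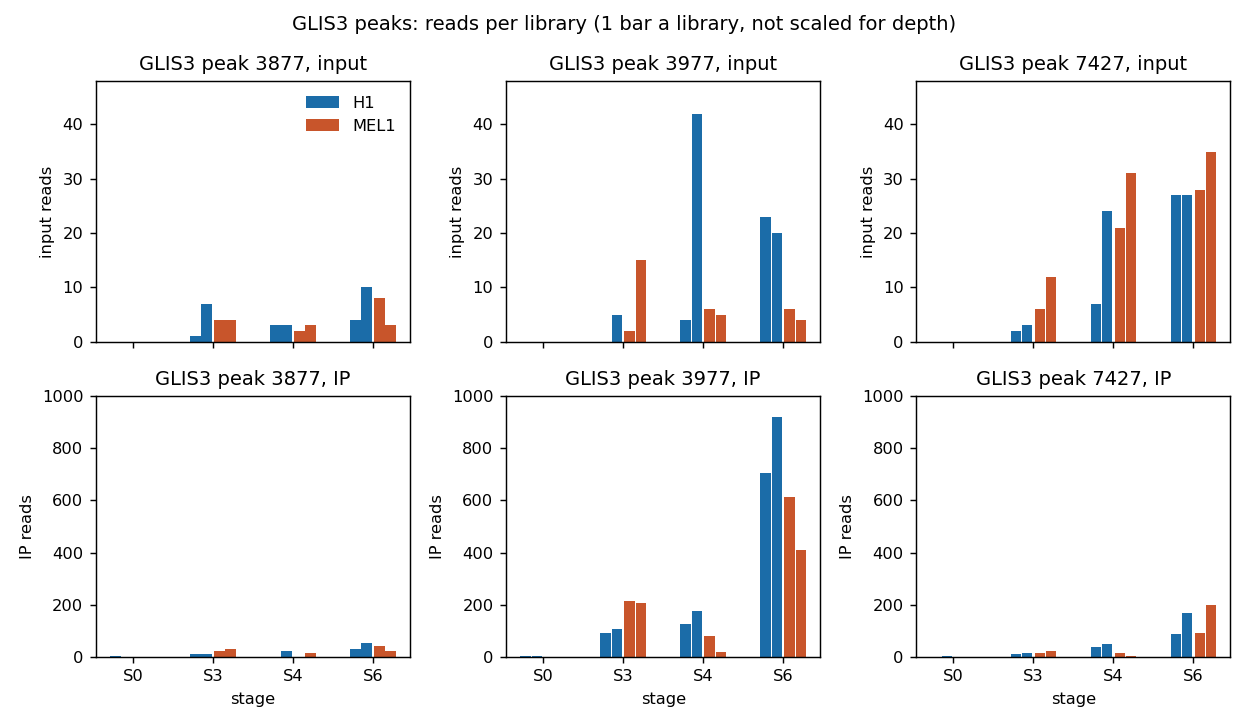
Reads of each GLIS3 peak in the 16 input libraries (top) and the 16 IP libraries (bottom), with 1 bar per library, H1 in blue and MEL1 in orange, as deposited and without scaling for depth. Peak 3977 stands out in the IP, with 410 to 920 reads at S6, while peak 7427 has the highest input counts of the 3 peaks in MEL1 at S4 and S6.

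All 4 INS-IGF2 peaks held fewer IP than input reads, relative to library size, at S3, S4 and S6, where 31%, 32.1% and 34.6% of peaks were called lower. Peak 277 had -3.17 ± 0.57 at S3, -3.55 ± 0.58 at S4 and -2.70 ± 0.56 at S6 on the log2 scale of IP over input (adjusted p = 2.78e-05, 1.06e-05 and 0.000147). Peak 727 had -5.18 ± 0.69, -4.00 ± 0.66 and -5.58 ± 0.70, and peak 927 had -4.48 ± 0.80, -3.73 ± 0.79 and -3.67 ± 0.77. Peak 127 had -4.78 ± 0.87, -6.16 ± 1.06 and -4.30 ± 0.84. Across the 12 later preparations every value of every peak was below 0.

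At S0 the counts were low, and peak 277, with 18 and 14 input reads in H1 and 4 and 10 in MEL1, had -2.96 ± 0.71 (adjusted p = 0.000936, 24.9% of peaks called lower). In the IP, peak 277 held a larger share of the INS-IGF2 reads than in the input, with medians of 86.5%, 71.8% and 82.6% at S3, S4 and S6. Peak 727 held a smaller share, with 6.93%, 16.3% and 5.95%. IGF2 was depleted too, with all 10 of its peaks below 0 at S3, S4 and S6, from -3.47 to -9.26.

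**Figure D4:**
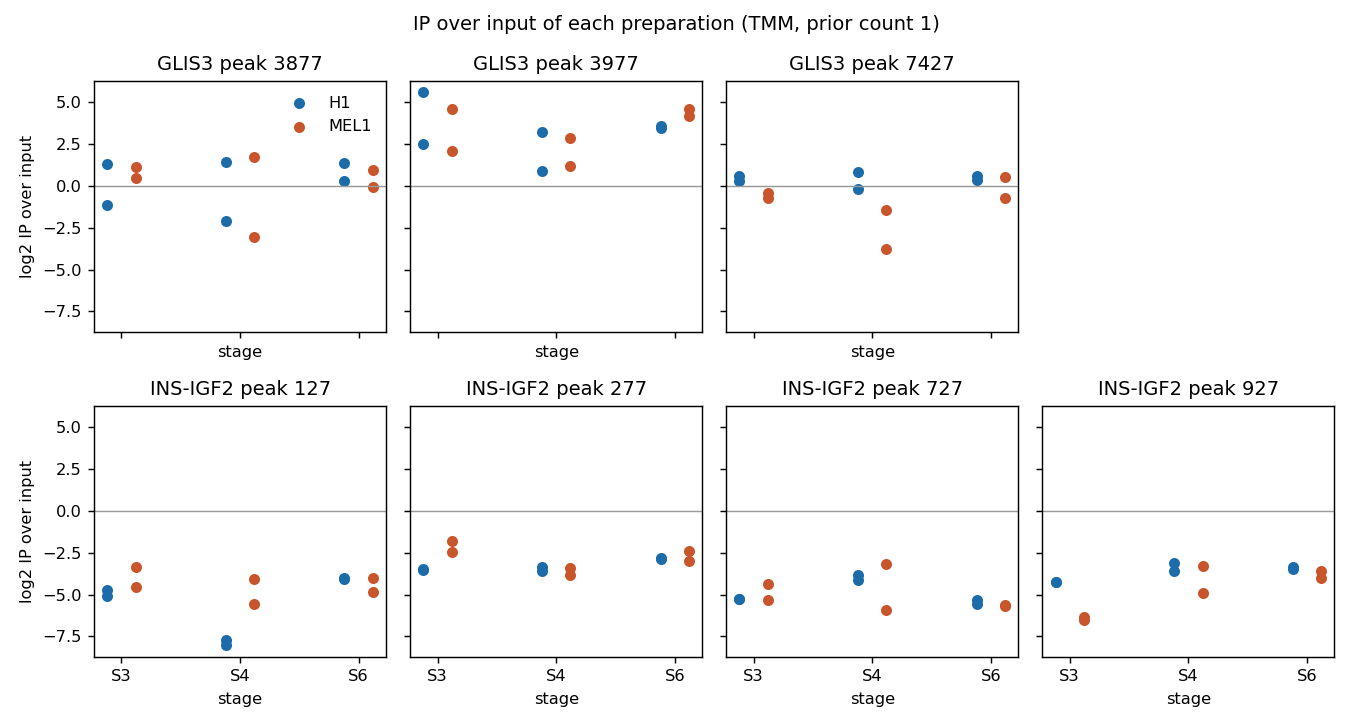
Log2 of IP over input (TMM over all libraries, prior count 1) of the 7 peaks at S3, S4 and S6, with 1 point per preparation, H1 in blue and MEL1 in orange, and a grey line at 0. GLIS3 peak 3977 lies above 0 in all 12 preparations, all INS-IGF2 peaks lie below 0, and peak 127 in H1 S4 has no IP reads.

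None of the 4 INS-IGF2 peaks was called for a change of IP over input between stages in any of the 6 comparisons, by edgeR or by DESeq2, and none of the 3 GLIS3 peaks in the 3 among S3, S4 and S6. Against S0 the GLIS3 peaks are not read, since they had 0 input and 0 to 4 IP reads per library there. The background was 0.0498% of peaks from S0 to S3, 6.6% from S3 to S4, 7.58% from S4 to S6, 11.3% from S0 to S4, 1.26% from S0 to S6 and 0% from S3 to S6. At an unadjusted p under 0.05 there were 2 values in edgeR, both of INS-IGF2 peak 727, from S0 to S3 (-2.84 ± 1.30) and from S0 to S6 (-3.25 ± 1.30), and 3 in DESeq2, those 2 (-2.77 and -2.97) and that from S4 to S6 (-1.97). From S0 to S6, DESeq2 gave peak 727 an adjusted p of 0.1001, just over the threshold, and edgeR gave 0.255. GLIS3 peak 3977 had -1.17 ± 1.04 from S3 to S4 (adjusted p = 0.608), 1.96 ± 1.02 from S4 to S6 (adjusted p = 0.279) and 0.80 ± 1.06 from S3 to S6 (adjusted p = 1). Peak 727 had 1.18 ± 0.83, -1.58 ± 0.83 and -0.40 ± 0.83 in the same comparisons.

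Within H1 alone, 3 of the 7 peaks were called from S3 to S4 and 3 from S4 to S6, where 46.2% and 41.6% of all peaks were. GLIS3 peak 3977 had -2.07 (adjusted p = 0.0732) and then 1.99 (adjusted p = 0.0162), INS-IGF2 peak 727 had 1.30 and then -1.57, and INS-IGF2 peak 127 had -6.14 and then 6.90, on the log2 scale. Peak 127 had 125 and 159 input reads but 0 IP reads in both H1 S4 preparations, against 60 to 92 IP reads in the H1 preparations of S3 and S6. These are the IP libraries with the lowest mitochondrial share, and the part of the library in these calls was not tested. Within MEL1 alone, 2 peaks were called from S3 to S4 (12.7% of all peaks), INS-IGF2 277 (-1.38) and 927 (2.97), and none from S4 to S6 (11.5%).

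The level of enrichment differed between the lines in 4 cases, with none at S6, where 2.79% of peaks were called. At S3, INS-IGF2 peak 277 was less depleted in MEL1 by 1.37 ± 0.31 (adjusted p = 0.0156) and peak 927 more depleted (-2.50 ± 0.59, adjusted p = 0.0205), where 3.46% of peaks were called. Peak 927 had 178 and 172 IP reads in H1 S3 and 5 and 5 in MEL1 S3, with 145 and 189 input reads in MEL1. IGF2 peak 4380, its near copy in counts, had 27 and 7 IP reads there, and its line difference at S3 did not pass the test (-0.78 ± 0.50, adjusted p = 0.571). At S4, where 40.2% of peaks were called, INS-IGF2 peak 127 was higher in MEL1 by 6.22 ± 1.32 (adjusted p = 0.000944) and GLIS3 peak 7427 lower (-2.59 ± 0.97, adjusted p = 0.0424). Leaving out either H1 replicate ended the S3 calls, with values of 1.23 and 1.17 for peak 277 and -2.65 and -2.70 for peak 927. That of GLIS3 7427 ended without either H1 replicate (-2.35 and -3.32) and without MEL1 replicate 2 (-1.66).

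Other genes of the pathways were counted from fixed lists. Of 32 islet and pancreatic transcription factors 18 had peaks, GLIS3 included, and 17 were called higher and none lower at S6 against S0, where 17.5% and 13.8% of genes were, with a median of 4.94 on the log2 scale against 0.03 over all 7973 genes. Examples are MEIS1 (6.90 ± 0.40), HNF4A (6.55 ± 0.66), MEIS2 (6.26 ± 0.50), the pancreatic master regulator PDX1 (5.92 ± 1.04, with the S6 libraries of H1 far below those of MEL1) and the pioneer factor FOXA1 (5.89 ± 0.33). At S3 against S0, 14 of the 18 were called higher and none lower (15% and 13.8% of all genes). At S4 against S3 none were called higher and 3 lower (1.49% and 0.351%), and at S6 against S4, 1 higher and 2 lower (2.85% and 2.33%).

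Of 35 genes of beta-cell function 10 had peaks, INS-IGF2 included, and 6 were called higher and 1 lower at S6 against S0 (median 1.44), where 17.5% of all genes were called higher and 13.8% lower. The prohormone processing enzyme CPE rose by 3.43 ± 0.76 and the granule protein CHGA by 2.85 ± 0.49, the glucose transporter SLC2A1 by 1.74 ± 0.46, and the neurosecretory protein VGF fell by 1.46 ± 0.57. At S3 against S0, 2 rose and 4 fell, where 15% and 13.8% of genes did. At S6 against S4, 4 rose and none fell (2.85% and 2.33% of genes), INS-IGF2, CHGA, the synaptotagmin SYT13 (1.41 ± 0.40) and VGF (2.22 ± 0.61), of which the call of INS-IGF2 was lost when any replicate was left out, as given above. CHGA fell by 3.88 ± 0.52 from S0 to S3 and rose by 4.50 ± 0.54 from S3 to S4 and by 2.23 ± 0.50 from S4 to S6, a course unlike that of INS-IGF2, which rose first at S3.

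Of 21 genes of the insulin and IGF pathway 13 had peaks, and at S6 against S0, 4 were called higher and none lower (median 0.60), where 17.5% and 13.8% of all genes were. They were IGF2 itself, the IGF-binding proteins IGFBP5 (6.41 ± 1.0) and IGFBP3 (5.04 ± 0.37) and the receptor substrate IRS1 (1.37 ± 0.24). The receptors IGF1R (0.51 ± 0.19), INSR (0.45 ± 0.19) and IGF2R (0.69 ± 0.21) were under 2-fold at S6 against S0, while IGF2R was called higher at S3 against S0 (1.61 ± 0.21, adjusted p = 2.92e-05).

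Of 16 genes of the GLIS, GLI and ZIC family with SUFU and the Hedgehog receptors 12 had peaks, and 4 were called higher and 4 lower at S6 against S0 (median 0.32), where 17.5% of all genes were called higher and 13.8% lower. Beside GLIS3, ZIC1 (5.83 ± 0.70), the Hedgehog receptor PTCH1 (1.93 ± 0.41) and the GLI inhibitor SUFU (1.36 ± 0.21) rose, and ZIC5 (-1.93 ± 0.56), GLI1 (-1.73 ± 0.47) and ZIC2 (-1.39 ± 0.50) were among those that fell. The paralog GLIS2 had 0.36 ± 0.27 (adjusted p = 0.315), and was called higher at S3 against S0 (1.17 ± 0.27).

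Among the neighbours on the chromosome, 4 of 21 listed genes near INS-IGF2 had peaks and IGF2 alone was called at S6 against S0, while the imprinted cell cycle inhibitor CDKN1C had 2.07 ± 1.0 (adjusted p = 0.110). Near GLIS3, 7 of 15 listed genes had peaks, of which 2 were called higher, the glutamate transporter SLC1A1 (2.14 ± 0.63) and RFX3 (1.38 ± 0.40), itself an islet transcription factor, and 2 lower, VLDLR (-1.81 ± 0.57) and RCL1 (-1.76 ± 0.50), against the same 17.5% and 13.8% of all genes.

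By Pearson correlation of log2 CPM over the 16 input libraries, among the 7718 genes whose mean reached 1 CPM, the genes most like GLIS3 were BAIAP2-DT (0.965), FOXK1 (0.958), CACNG4 (0.956), LRATD1 (0.949) and SLC35E1 (0.945). Those most like INS-IGF2 were IGF2 (0.995), ENSG00000284779 (0.993), ENSG00000124593 (0.984), ENSG00000240801 (0.983) and PRICKLE4 (0.981), the first 2 of which share reads with it. GLIS3 and INS-IGF2 had a correlation of 0.882 with each other. The points share stages and lines, and the S0 libraries, low for both genes, lie apart from the rest, so these values are a description.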

How the data were processed

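With MeRIPtools and an Ensembl gene annotation whose release is one on GRCh38, the authors split genes into bins of 50 bp, called and merged peaks, counted the reads of each merged peak and deposited raw counts per peak and library, without normalization. The aligner and peak settings are not given in the sources used here. Input levels of a gene are sums over its peaks. Peaks or genes with a total of at least 10 reads were fitted by quasi-likelihood in edgeR 4.0.16 (R 4.3.3) after TMM normalization, with cell line as a covariate (for lines, a mean for each line and stage), and m6A was the IP against input contrast of 1 model over all 32 libraries. A standard error is the log2 value over the square root of F. The study used DESeq2, here (1.42.0) an alternative. Peak shares were tested with edgeR's diffSpliceDGE. Log2 ratios and correlations used a prior count of 1. The fits were tested on simulated data. Plots used matplotlib 3.10.9.

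The peaks and gene lists were chosen with earlier results of these data known. Called list members with a mean of at least 1 CPM were named, up to 10 per list by size of change at S6 against S0, of which examples are given. Members that were not called (IGF1R, INSR, IGF2R at S6, GLIS2, CDKN1C, KCNJ11) and the levels of PDX1 were added after their values were seen. Some listed genes are not reported here by name. Replicates differed by more than sampling noise (chi-square over degrees of freedom at least 1.67 in every pair), so none was merged. Libraries were grouped by the labels. Input and IP come from the same preparation, since input was saved before immunoprecipitation. The main m6A fit did not pair them, and the preparation as a block was an alternative. Within a line and stage, the difference between the replicates in input correlated with that in IP between -0.199 (MEL1 S0) and 0.0706 (MEL1 S4). Alternatives were DESeq2, RLE size factors, other filters, no cell line, each line alone, replicate blocks, normalization within input and IP, IP counts alone, no mitochondrial genes and each replicate left out. A replicate left out of a fit means all libraries of a line with that number, at every stage. Leaving out replicates in the tests between lines, leaving out MEL1 S4 and thinning IP libraries to 2378881 reads were added after seeing the data.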

Additional observations from a re-analysis of the deposited data

Results flagged for a closer look

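The change of INS-IGF2 in the input differed between the lines in 4 comparisons, by the test of the difference itself. MEL1 minus H1 was 3.54 from S3 to S4, 2.71 from S0 to S4, 2.65 from S0 to S6 and 3.48 from S3 to S6, all on the log2 scale. The m6A enrichment differed between the lines, MEL1 minus H1, by 1.37 for INS-IGF2 peak 277 at S3, by -2.50 for INS-IGF2 peak 927 at S3, by -2.59 for GLIS3 peak 7427 at S4 and by 6.22 for INS-IGF2 peak 127 at S4. The last rests on 0 IP reads in both H1 S4 preparations.

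Of 27 groups of 4 libraries examined, 2 held a library far from the other 3, where chance gives about 5% of groups. For INS-IGF2 peak 127 at S6, MEL1 replicate 1 had a log2 IP over input of -4.85 against -4.00 to -4.08, a gap of 0.905 of the range. For INS-IGF2 peak 727 at S3, MEL1 replicate 1 had -4.36 against -5.25 to -5.30, a gap of 0.952 of the range.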

How the results depend on the processing

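Of 1065 alternatives over 83 results, 967 kept the direction and the side of the threshold, 39 lost a call, 22 gained one, 30 turned the sign and 7 moved a count, and the cause was not tested. INS-IGF2 from S3 to S4 was -1.96 with H1 alone and 1.57 with MEL1 alone, and -1.06 to 0.32 with single replicates left out, above 0 without either H1 replicate. From S3 to S6 it was 1.56 and called with DESeq2, -0.021 with H1 alone and 3.44 with MEL1 alone, and 0.82 to 2.18 with single replicates left out, called without either H1 replicate. From S4 to S6 the call was lost with no cell line (1.89, adjusted p = 0.152) and with the replicate block (1.90, adjusted p = 0.114), and without single replicates (1.86 to 1.94, adjusted p = 0.132 to 0.203). GLIS3 from S3 to S4 was called with DESeq2 (1.59), H1 alone (1.90) and MEL1 alone (1.40).

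The difference between the lines for INS-IGF2 from S0 to S3 was -1.31 without MEL1 replicate 1 (called, adjusted p = 0.0681) and 0.0015 without MEL1 replicate 2, where the lone MEL1 library of a stage is assumed to vary like the other groups, that from S4 to S6 was -0.32 to 0.14, and that of GLIS3 from S3 to S4 was -1.05 to 0.16, with single replicates left out. The count of the 7 peaks called for a change of m6A from S3 to S4 was 3 with H1 alone, 2 with MEL1 alone and 1 without MEL1 S4. From S4 to S6 it was 3 with H1 alone, 2 with IP counts alone and 1 without MEL1 S4, and from S3 to S6 it was 3 with IP counts alone.

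The sign turned for the enrichment of GLIS3 peak 3877 at S3 with DESeq2 (-0.31), RLE (-0.31), H1 alone (-0.28) and thinned IP libraries (-0.021), and at S4 with single replicates left out (-0.13 to 1.37) and with the preparation as a replicate block (-0.11). It turned for peak 7427 at S3 with H1 alone (0.58) and with single replicates left out (-0.45 to 0.085), at S4 with H1 alone (0.28) and without MEL1 S4 (0.23), and at S6 with DESeq2 (-0.19) and RLE (-0.19). The m6A change of GLIS3 peak 3977 from S3 to S6 was -0.079 with H1 alone and -0.40 to 1.39 with single replicates left out, and from S3 to S4 it was 0.56 with IP counts alone. That of INS-IGF2 peak 727 was 0.38 from S4 to S6 and 1.24 from S3 to S6 with IP counts alone, and -0.54 to 0.040 from S3 to S6 with single replicates left out. In the input, GLIS3 peak 3877 from S3 to S4 was 0.046 with MEL1 alone and -0.56 to 0.52 with single replicates left out, and peak 3977 was -0.17 with MEL1 alone and -0.31 to 0.84 with single replicates left out from S4 to S6, and -0.029 with MEL1 alone from S3 to S6.

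Deviations of libraries with the same replicate number at different stages correlated between -0.0078 and 0.0522 in H1 and between 0.0656 and 0.128 in MEL1, where 4 of 6 pairs of stages were above 0.1. Since not every pair was, the numbers were not taken to pair the libraries, though those of MEL1 may share more than a number. With the replicate block the calls from S4 to S6 of INS-IGF2 and its peaks 277 and 927 were lost. The values of the GLIS3 peaks rest on 0 to 42 input reads per library.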
